A study of Mus musculus with 3 samples.

Results

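The insulin-like growth factor (IGF) genes described here are 9 of the 36167 features in the count tables of 3 mouse aortic valve libraries. They were chosen by name, with earlier results of these data known. They are the growth factor gene Igf1, the receptor genes Igf1r and Insr, and the binding protein genes Igfbp2, Igfbp3, Igfbp4, Igfbp5, Igfbp6 and Igfbp7. Igf1 is the only growth factor gene among the 9, and the second one, Igf2, is given with the other genes of the pathway. All 9 had UMIs in every pool and all 9 passed the filter on low counts.

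The tissue was the aortic valve structure of mouse pups at postnatal day 1, frozen and then dissociated to nuclei. The 3 pools, each made of 22 to 24 aortic roots, form 1 group. All carry the strain label B6.Cg-Scx<tm1.1(EGFP)Skom with the stock number RBRC11098, an EGFP allele of Scx whose zygosity the labels do not give, and the labels list no treatment. The labels call each library a pool, so the spread between pools is the only replicate error, and differences among single pups were not measured. With 1 group, the comparisons are between classes of nuclei within pools. Each value below is a level in CPM (counts-per-million), taken over all UMIs of that class and pool, and a UMI is a molecular identifier that marks 1 captured RNA molecule.

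IGF1 and IGF2 are small secreted proteins that drive growth before and after birth. Both act on the IGF1 receptor, a tyrosine kinase encoded by Igf1r, whose close relative, the insulin receptor encoded by Insr, takes up insulin and, in one of its isoforms, IGF2. Adaptor proteins of the IRS and SHC families pass the signal to the PI3 kinase and MAP kinase pathways. Outside the cell most IGF is held by binding proteins, which carry it, shield it from the receptors or bring it to the cell surface and matrix, and which proteases such as pappalysin 1 cut to release it. IGFBP6 prefers IGF2 over IGF1, and IGFBP7 binds IGFs only weakly and insulin more than the others do. In the heart, IGF2 from the epicardium, the mesothelial layer on its surface, is a known growth signal for the embryonic myocardium.

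The 13182 analysed nuclei, 6473, 3098 and 3611 in pools 1 to 3, had median totals of 4323, 4798.5 and 3346 UMIs. They formed 29 clusters from genes other than the IGF genes and the pathway list, and 25 clusters matched 13 classes by their markers. The 4 unnamed clusters held 14.5% of the nuclei and are in no order of classes below. They held 25.3% of all Igf1r UMIs and 26.5% of all Insr UMIs. With the pools summed, their levels were 830 CPM of Igf1r and 345 CPM of Insr. An unnamed cluster of 499 nuclei had 5 cardiomyocyte markers. Another, of 399 nuclei, had Mylk4 and Ptprz1 among its top genes, as had a smooth muscle-like cluster. The 10 classes that reached 20 nuclei in each pool were compared, and each carries the word "like" because it was rebuilt from markers. Valve interstitial-like nuclei, the fibroblast-related cells of the leaflets, numbered 1572 of the 13182. The structures also held 2742 endothelial-like, 2449 smooth muscle-like, 2414 cardiomyocyte-like, 965 fibroblast-like, 373 mesothelial-like, 266 macrophage-like, 135 pericyte-like, 122 lymphatic endothelial-like and 73 erythroid-like nuclei. Pools 1 and 2 shared 99 cell barcodes, pools 1 and 3 shared 59 and pools 2 and 3 shared 44. Pool 3 had the lowest level of Igfbp7 in 9 of the 10 classes, of Igfbp4 in 8 and of Igfbp5 in 7, and pool 2 had the highest level of Igfbp5, Igfbp6 and Igfbp7 in 7 classes each. The pool was a block in the fits, which compare classes within pools. The valve interstitial-like clusters were named from 8 and 6 detected markers, among them Matn4, Col9a1, Sox9, Tbx20 and Postn, and the mesothelial-like cluster from all 7 of its list.

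Each gene was tested in a class against the mean of the other classes, and between each pair of classes, with edgeR's quasi-likelihood test and Benjamini-Hochberg adjustment over all genes tested. A difference was called at an adjusted p under 0.05. Over the 90 contrasts of 9 genes with 10 classes, 24 were called higher and 21 lower, where 19.2% and 7.61% of all 135180 contrasts of genes with classes were called higher and lower. Higher and lower calls numbered 4 and 4 in smooth muscle-like nuclei (25.4% and 8.77% of all genes), 3 and 2 in endothelial-like (22.7% and 7.32%), 2 and 2 in valve interstitial-like (19.8% and 8.74%) and 1 and 4 in cardiomyocyte-like nuclei (30.2% and 14.8%). Between pairs of classes, 218 of 405 contrasts were called, against 31.6% of all contrasts of genes with pairs. The count of lower calls against the mean was 8 without pool 1, 12 without the block and 32 of 81 without the erythroid-like class, where 15.5% of all were called lower. That is a class of few nuclei that carries the haemoglobin genes and whose median log2 difference over all genes was -1.48. The differences of the 9 genes below are given between pairs of classes, as log2 values.

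**Figure D1:**
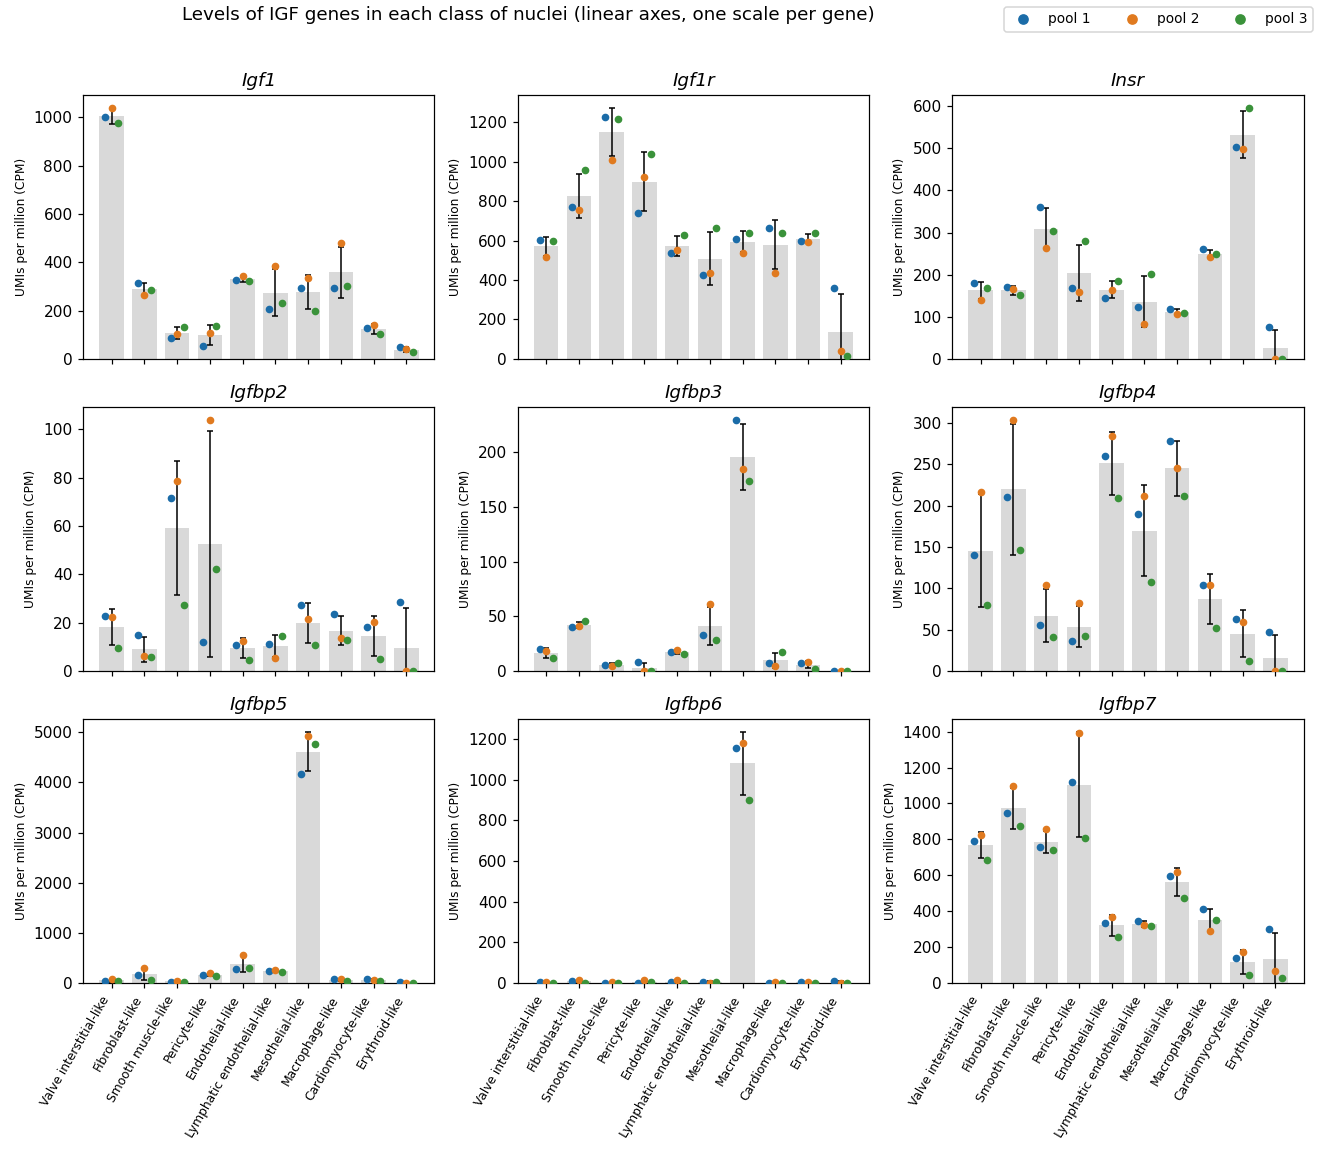
Level of each of the 9 genes (CPM, linear axis with its own scale per gene) in 10 classes of nuclei. Grey bars are means and black lines the SD over 3 pools, and coloured points are the pools. Igf1 is highest in valve interstitial-like nuclei, Igf1r in smooth muscle-like nuclei and Insr in cardiomyocyte-like nuclei, and Igfbp3, Igfbp5 and Igfbp6 are highest in mesothelial-like nuclei.

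Igf1 RNA was highest in valve interstitial-like nuclei, in all 3 pools and its mean being 2.81-fold that of the next class. Its level there was 1002, 1041 and 976 CPM in pools 1 to 3, a mean of 1006 ± 32.7 (SD, n = 3 pools). The macrophage-like class came next with 294, 481 and 299.8, and no pool of any other class reached the lowest valve interstitial-like pool. The difference from macrophage-like nuclei was 1.58 (SE 0.20, adjusted p = 1.55e-08), and the valve interstitial-like level exceeded that of all 9 other classes, by up to 3.39 (SE 0.26) over pericyte-like nuclei. These 11.9% of the nuclei held 31.3% of all Igf1 UMIs. After each nucleus was thinned to 1000 UMIs, an Igf1 UMI was present in 36.5% ± 0.672 of valve interstitial-like nuclei and in 10.2% ± 1.85 of cardiomyocyte-like nuclei, at median depths of 3639 and 4894.5 UMIs. By cluster the cardiomyocyte-like share ran from 2.85% ± 0.801 in the one led by Ryr3 to 18.2% ± 2.97 in the one led by Mb, and the smooth muscle-like cluster led by Ptprz1 had 2.60% ± 0.492. The cardiomyocyte-like shares here and below are therefore a reference and not one level of free RNA.

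Below the valve interstitial-like class, Igf1 levels formed a broad middle group. The means were 358 ± 106 CPM in macrophage-like, 330.3 ± 9.86 in endothelial-like, 288 ± 26.1 in fibroblast-like, 276 ± 70.1 in mesothelial-like nuclei, and the lymphatic endothelial-like pools held 206, 385 and 230.0. None of the neighbours in this order was called, with adjusted p from 0.36 to 0.94. The step to the low group was called, from lymphatic endothelial-like to cardiomyocyte-like nuclei (123 ± 19.7 CPM), with a difference of 0.81 (SE 0.22, adjusted p = 0.00424). Without pool 2 it was not called (adjusted p = 0.218). Smooth muscle-like (108 ± 24.1) and pericyte-like (99.2 ± 43.0) nuclei were not called apart (adjusted p = 0.46). Endothelial-like nuclei were numerous and held 24.3% of all Igf1 UMIs.

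The valve interstitial-like class was made of 2 clusters, and Igf1 separated them. In the cluster led by Rmst, Pcdh15, Rnf43 and Adamts19 (958 nuclei) the level was 1358, 1454 and 1297 CPM in pools 1 to 3, and in the cluster led by Ctnna2, Abi3bp, Col11a1 and Robo2 (614 nuclei) it was 284, 299 and 235. The ranges were far apart, and the difference was 2.33 (SE 0.10, adjusted p = 3.91e-13). The second cluster thus lay in the middle group of classes, at a mean of 273 ± 33.8 CPM. In the thinned nuclei, an Igf1 UMI was present in 48.2% ± 1.29 of the first cluster and 18.0% ± 2.43 of the second, at median depths of 4035 and 3109 UMIs. Igf1r went the other way, with 507 ± 52.1 CPM in the first cluster and 703 ± 55.1 in the second, a difference of -0.46 (SE 0.09, adjusted p = 7.42e-04). Without the block that difference had an adjusted p of 0.0799. Insr, Igfbp5 and Igfbp7 were not called between the 2 clusters.

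Fibroblast-like and smooth muscle-like nuclei were divided in the same manner. Fibroblast-like nuclei of the cluster led by Tmeff2, Fgf10 and Clec3b, which also had Pi16 among its top genes, held 498, 565 and 512 CPM of Igf1, and those of the cluster led by Abca8a held 194, 134 and 198. The difference was 1.62 (SE 0.14, adjusted p = 4.75e-08). In smooth muscle-like nuclei, the cluster led by Ptprz1 and Mylk4 held 31.0, 65.7 and 39.0 CPM and the cluster led by Syt1 and Ntrk3 169.7, 146 and 204, a difference of -2.05 (SE 0.13, adjusted p = 1.76e-53). In neither class did the pools of the 2 clusters overlap. Over 7 alternatives the adjusted p of the smooth muscle-like difference was up to 4.68e-04. Over the 97 contrasts of the 9 genes with clusters of a class that could be tested, 33 were called higher and 28 lower, where 14.6% and 12.8% of all such contrasts of genes were called.

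The promoter window of Igf1 shows what lies just upstream of the RefSeq start of the gene with the valve interstitial-like peak. It covers 250 bases before the start (chr10:87860861-87861110, plus strand, GRCm38.p6, from RefSeq), is 52.8% G and C, close to the median of 52.4% over 32851 windows, and is printed 5′ to 3′ with the start just beyond its end.
Igf1: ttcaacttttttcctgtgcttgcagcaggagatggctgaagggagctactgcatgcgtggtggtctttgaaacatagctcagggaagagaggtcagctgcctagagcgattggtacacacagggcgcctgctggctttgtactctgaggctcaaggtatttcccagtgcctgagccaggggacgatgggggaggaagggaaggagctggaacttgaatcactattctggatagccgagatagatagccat
The motifs searched on both strands were TATAAA, known as the TATA box, then GGGCGG, the GC box, then CACGTG, an E-box, and GGAATG, the TEAD motif. None was found in this window. They occurred in 12.4%, 32.7%, 6.02% and 12.6% of the windows.

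The 2 receptor genes had their highest levels in muscle classes, and in different ones. Igf1r was detected broadly and its class means spanned 2.26-fold outside the erythroid-like class. It was 1224, 1009 and 1217 CPM in the pools of smooth muscle-like nuclei, 738, 920.4 and 1039 in pericyte-like and 771, 757 and 956 in fibroblast-like nuclei, and the ranges of neighbours in this order overlapped. Smooth muscle-like nuclei exceeded fibroblast-like nuclei by 0.67 (SE 0.22, adjusted p = 0.0156) and were not called above pericyte-like nuclei, at 0.52 (SE 0.23, adjusted p = 0.082). That difference was 0.34 without pool 1, and DESeq2 called it. The call against fibroblast-like nuclei was lost in 3 of 6 alternatives, with an adjusted p of up to 0.116. The 5 classes from cardiomyocyte-like (609.9 ± 24.3) to valve interstitial-like nuclei (571 ± 47.6) held close means and no neighbours among them were called. Valve interstitial-like nuclei, with the highest Igf1, were below smooth muscle-like nuclei in Igf1r by 1.17 (SE 0.22, adjusted p = 3.10e-05).

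Insr was highest in cardiomyocyte-like nuclei. It was 503, 498 and 596 CPM there in pools 1 to 3, 361, 264 and 303 in smooth muscle-like nuclei and 260.3, 242 and 248 in macrophage-like nuclei. The cardiomyocyte-like pools lay above every pool of the other compared classes. The difference from smooth muscle-like nuclei was 0.94 (SE 0.17, adjusted p = 3.06e-05). The step from smooth muscle-like to macrophage-like nuclei was called at 0.53 (SE 0.19, adjusted p = 0.0301), but the call was lost in 5 of 6 alternatives, among them each pool left out, with an adjusted p of up to 0.222. Endothelial-like (165 ± 20.5), fibroblast-like (163 ± 11.1) and valve interstitial-like nuclei (163 ± 20.6) held close means, and mesothelial-like nuclei the lowest outside the erythroid-like class (112 ± 6.74). The cardiomyocyte-like level exceeded that of all 9 other classes. In thinned nuclei an Insr UMI was present in 36.0% ± 5.70 of the cardiomyocyte-like class and 12.8% ± 4.70 of the mesothelial-like class, whose median depth was 9930 UMIs. No class served as a free RNA background for the receptor genes.

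Within the cardiomyocyte-like class, Insr followed the cluster. The largest cluster (1542 nuclei, led by Fgf13, Ryr2 and Fhl2) held 601, 597 and 634 CPM, and the difference from the mean of the other cardiomyocyte-like clusters was 1.18 (SE 0.14, adjusted p = 4.36e-08). The cluster led by Ryr3, Cpne5 and Fgf12, with Tbx5 among its top genes, held 359.9, 315 and 425, and was not called. The cluster led by Mb, Myl3 and Fabp3 held 187, 256 and 369. That cluster stood apart in quality, with a median of 1931 UMIs and 3.70% mitochondrial UMIs, against 5570.5 UMIs and 0.372% in the largest cluster. Secreted members were higher in it than in the largest cluster. Igfbp7 was 526 ± 172 CPM in it and 31.9 ± 8.52 in the largest cluster, Igfbp4 181 ± 102 and 14.3 ± 5.57, and Igfbp6 23.1 ± 9.02 and 1.40 ± 0.110. Igfbp5 was highest in the cluster led by Ryr3, at 303, 218 and 196 CPM. Its difference from the mean of the other clusters was 1.74 (SE 0.15, adjusted p = 1.68e-10). Igfbp5 was also called higher in the cluster led by Mb, by 1.35 (SE 0.15, adjusted p = 4.04e-09). These 2 clusters were not tested against each other. All 7 mesothelial markers were detected in the cluster led by Mb in every pool, at summed levels of 54.6 to 108 CPM, and their part in these levels was not tested. Mesothelial-marker UMIs in the largest cluster came to 2.29 to 9.17 CPM.

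**Figure D2:**
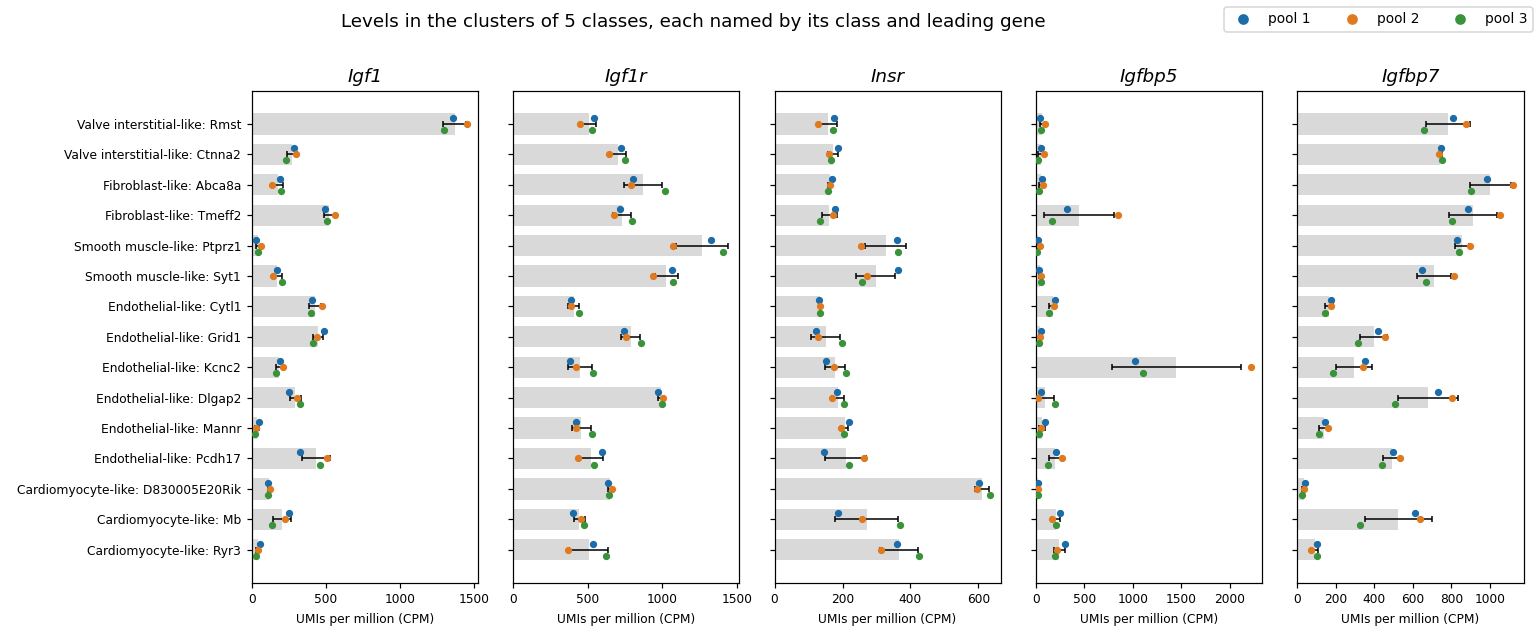
Levels of Igf1, Igf1r, Insr, Igfbp5 and Igfbp7 (CPM, linear axes from 0) in clusters of 5 classes that reached 20 nuclei in each pool. Bars are means and lines the SD over 3 pools, points are pools. Igf1 is highest in every pool of the valve interstitial-like cluster led by Rmst and lower in every pool of the cluster led by Ctnna2, and Igfbp5 is highest in every pool of the endothelial-like cluster led by Kcnc2.

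Igfbp3, Igfbp5 and Igfbp6 had their highest levels in mesothelial-like nuclei, the surface layer marked by Wt1, Upk3b and Msln. These 2.83% of the nuclei held 92.5% of all Igfbp6 UMIs, 66.0% of all Igfbp5 UMIs and 51.5% of all Igfbp3 UMIs. Igfbp5 was 4173, 4919 and 4758 CPM in pools 1 to 3, a mean of 4617 ± 393. The endothelial-like class came next at 275, 557 and 299, far below, and the difference was 3.89 (SE 0.25, adjusted p = 1.99e-16). Igfbp6 was 1155, 1181 and 901 CPM in mesothelial-like nuclei and no class mean elsewhere exceeded 9.23. The difference from the next class, fibroblast-like nuclei, was 7.11 (SE 0.28, adjusted p = 3.46e-23). Igfbp3 was 229.8, 184 and 174 CPM in mesothelial-like nuclei and 40.2, 41.6 and 45.5 in fibroblast-like nuclei, a difference of 2.53 (SE 0.17, adjusted p = 1.23e-15). For each of the 3 genes the mesothelial-like pools lay above all other pools, and the differences from all 9 other classes were called. In this class 6 of the 9 genes were called higher than the mean of the other classes and 1, Insr, lower, against 33.3% and 13.3% of all genes. The Insr difference was -0.57 (SE 0.18, adjusted p = 0.00644), and without pool 1 it was 0.39 (SE 1.18) and not called. In pools 2 and 3 the erythroid-like nuclei held no Insr UMI.

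As a share of thinned nuclei, an Igfbp5 UMI was present in 81.6% ± 1.26 of mesothelial-like nuclei, an Igfbp6 UMI in 50.9% ± 6.50 and an Igfbp3 UMI in 17.7% ± 2.44. In cardiomyocyte-like nuclei the shares were 7.24% ± 2.71, 0.562% ± 0.329 and 0.819% ± 0.587, and they differed by cluster. For Igfbp5 the share was 2.42% ± 0.417 in the largest cluster, 16.4% ± 4.74 in the one led by Mb and 16.3% ± 2.20 in the one led by Ryr3. All 21 cardiomyocyte-like nuclei with an Igfbp3 UMI after thinning were in the cluster led by Mb. The median depths were 9930 UMIs in mesothelial-like and 4894.5 in cardiomyocyte-like nuclei, and without thinning the mesothelial-like shares were 96.2% ± 1.19, 83.1% ± 3.59 and 57.3% ± 10.7. Mesothelial-like nuclei also had the highest median share of mitochondrial UMIs among the compared classes, 2.90%, whose part in these levels was not tested.

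The promoter windows of these 3 genes are shown because the genes share their highest class. Each covers 250 bases before the RefSeq start (GRCm38.p6), 5′ to 3′ on the gene's strand, with any match to the 4 motifs searched, on either strand, in capitals. Igfbp3 lies at chr11:7213924-7214173, minus strand, Igfbp5 at chr1:72874866-72875115, minus strand and Igfbp6 at chr15:102143936-102144185, plus strand.
Igfbp3: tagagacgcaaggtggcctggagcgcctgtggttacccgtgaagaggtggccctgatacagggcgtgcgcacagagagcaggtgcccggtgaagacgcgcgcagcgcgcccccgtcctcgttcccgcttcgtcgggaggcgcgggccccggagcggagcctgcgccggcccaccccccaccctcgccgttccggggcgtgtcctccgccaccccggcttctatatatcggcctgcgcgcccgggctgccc
Igfbp5: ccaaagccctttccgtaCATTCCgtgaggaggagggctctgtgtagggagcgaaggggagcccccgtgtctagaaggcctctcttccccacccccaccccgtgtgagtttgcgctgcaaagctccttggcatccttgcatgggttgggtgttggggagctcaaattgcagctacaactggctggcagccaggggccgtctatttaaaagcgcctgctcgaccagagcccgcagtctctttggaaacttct
Igfbp6: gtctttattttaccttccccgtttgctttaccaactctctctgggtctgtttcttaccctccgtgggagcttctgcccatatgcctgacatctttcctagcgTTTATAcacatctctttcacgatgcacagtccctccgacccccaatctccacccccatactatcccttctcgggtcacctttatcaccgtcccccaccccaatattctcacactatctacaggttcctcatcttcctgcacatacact
The windows differed in base composition, with 73.2% G and C for Igfbp3, 58.8% for Igfbp5 and 49.6% for Igfbp6. Igfbp6 had 1 TATAAA, on the reverse strand at position -148 from the start, and Igfbp5 had 1 GGAATG, also on the reverse strand, at position -233. No motif was found in the Igfbp3 window, and no motif was shared by the 3 windows.

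Outside the mesothelial-like class, the 3 genes differed in how their UMIs followed mesothelial markers. For each UMI of the 7 markers (Wt1, Upk3b, Msln, Lrrn4, Krt19, Bnc1 and Upk1b), mesothelial-like nuclei held 0.245 UMIs of Igfbp6. The same ratio was 0.198 in endothelial-like, 0.285 in fibroblast-like, 0.299 in smooth muscle-like, 0.268 in valve interstitial-like and 0.269 in cardiomyocyte-like nuclei. Macrophage-like nuclei had 0.0962, from 5 Igfbp6 UMIs. These sums cover pools and clusters that differed. By pool the ratio was 0.251, 0.235 and 0.233 in mesothelial-like, 0.157, 0.299 and 0.0674 in endothelial-like and 0.224, 0.455 and 0.0909 in valve interstitial-like nuclei, and by endothelial-like cluster it ran from 0.0177 in the one led by Mannr to 0.54 in the one led by Kcnc2 among those tested. In the summed pools Igfbp5 had 3.92 UMIs for each Igfbp6 UMI in mesothelial-like nuclei, 47.0 in endothelial-like, 18.7 in fibroblast-like and 16.7 in valve interstitial-like nuclei. Igfbp3 had 0.188 UMIs for each Igfbp6 UMI in mesothelial-like nuclei, 9.5 in lymphatic endothelial-like, 5 in valve interstitial-like and 4.26 in fibroblast-like nuclei. These ratios come from UMIs summed over the 3 pools and describe these libraries. The part of free RNA in them was not tested.

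**Figure D3:**
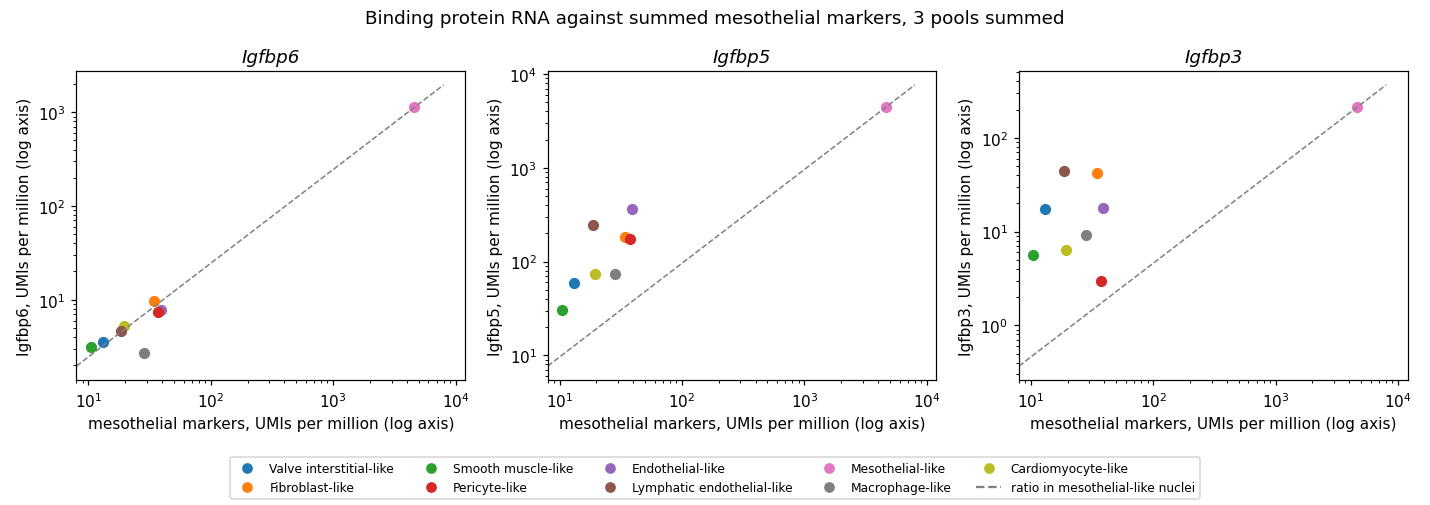
Igfbp6, Igfbp5 and Igfbp3 (vertical, CPM, log axis) against the sum of 7 mesothelial markers (horizontal, CPM, log axis) in 9 classes, with the 3 pools summed. The dashed line marks the ratio in mesothelial-like nuclei. With the pools summed, most classes lie near the line for Igfbp6 and above it for Igfbp5 and Igfbp3. The Igfbp6 ratios of single pools and of the endothelial-like clusters spread more widely.

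Igfbp5 had further local maxima. Among endothelial-like clusters it was highest in the one led by Kcnc2, Fam155a, Wnt9b and Pthlh (420 nuclei), at 1019.9, 2225 and 1111 CPM in pools 1 to 3. This cluster had a median of 2.83% mitochondrial UMIs, the highest among endothelial-like clusters, where the others had 0.782% to 2.37%, and the part of that in its levels was not tested. Its lowest pool lay above every pool of the other tested endothelial-like clusters, of which the highest mean was 199.8 ± 70.2, and the difference from the mean of the others was 3.90 (SE 0.20, adjusted p = 1.19e-14). The pools differed, pool 2 being the highest, and mesothelial-marker UMIs differed as well, at 21.9, 73.1 and 7.41 CPM, with 5, 7 and 3 of the 7 markers detected in pools 1 to 3. Upk3b and Krt19 were at 0 in pool 1, and Upk3b, Lrrn4, Krt19 and Bnc1 in pool 3. In pool 3 Igfbp5 had 600 UMIs and Igfbp6 none. In fibroblast-like nuclei Igfbp5 was 319.6, 849.6 and 164 CPM in the cluster led by Tmeff2 and 63.5, 69.3 and 32.7 in the cluster led by Abca8a, a difference of 2.90 (SE 0.21, adjusted p = 1.99e-09). Pool 2 was again the highest. Mesothelial markers in the cluster led by Tmeff2 summed to 43.0 to 53.3 CPM, with 6, 4 and 2 of 7 detected. Upk1b was at 0 in pool 1, Upk3b, Lrrn4 and Bnc1 in pools 2 and 3, and Msln and Upk1b also in pool 3. The part of these markers' source was not tested.

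Igfbp5 was low in the class that led in Igf1. It was 47.3, 91.9 and 42.0 CPM in valve interstitial-like and 26.2, 47.6 and 30.3 in smooth muscle-like nuclei, and endothelial-like nuclei exceeded the former by 2.66 (SE 0.26, adjusted p = 2.75e-11). The endothelial-like level was uneven, as the cluster led by Kcnc2 held 3959 of the 5407 Igfbp5 UMIs in 420 of the 2742 nuclei, and the cluster led by Grid1 had 41.4 ± 8.54 CPM, against 60.4 ± 27.4 in valve interstitial-like nuclei. Lymphatic endothelial-like nuclei held 243 ± 21.0, fibroblast-like 179 ± 117 and pericyte-like 172 ± 20.9 CPM, with no neighbours called among these. Pericyte-like nuclei differed from macrophage-like nuclei (70.8 ± 16.9) by 1.28 (SE 0.35, adjusted p = 0.00405). The lower Igfbp3 levels ran from lymphatic endothelial-like nuclei at 41.2 ± 17.6 to pericyte-like nuclei at 2.69 ± 4.66 CPM, where only 2 UMIs were found. Erythroid-like nuclei had no Igfbp3 UMI in any pool, where a count of 0 allowed up to 28.4 to 42.1 CPM. Lymphatic endothelial-like nuclei exceeded endothelial-like nuclei in Igfbp3 by 1.28 (SE 0.35, adjusted p = 0.00385), which was not called without pool 2 (adjusted p = 0.23).

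Igfbp2, which lies beside Igfbp5, had another highest class. Igfbp2 and Igfbp5 follow each other on chromosome 1 in the RefSeq order of genes, and Igfbp1 and Igfbp3 on chromosome 11. The mean of Igfbp2 was highest in smooth muscle-like nuclei, without a call over pericyte-like nuclei. In smooth muscle-like nuclei Igfbp5 had its lowest mean outside the erythroid-like class. Igfbp1, which is no member, had 1 UMI in all deposited nuclei and none in the analysed ones.

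Igfbp2, whose protein circulates and binds both IGFs, was 71.5, 78.7 and 27.3 CPM in smooth muscle-like nuclei and 12.1, 104 and 42.2 in pericyte-like nuclei. Pericyte-like pools ranged from below to above the smooth muscle-like ones, and the difference was not called, at 0.37 (SE 0.35, adjusted p = 0.47). It turned to -0.31 without pool 1 and was 1.15 without pool 2, neither of them called. Smooth muscle-like nuclei exceeded mesothelial-like nuclei (19.9 ± 8.26) by 1.43 (SE 0.26, adjusted p = 2.45e-05), and the other classes had means of 9.04 to 18.3 CPM. Only 35 UMIs lay behind the pericyte-like values, and in thinned nuclei an Igfbp2 UMI was present in 4.56% ± 1.64 of smooth muscle-like and 1.98% ± 1.06 of cardiomyocyte-like nuclei (0.392% ± 0.391 of their largest cluster and 5.86% ± 2.28 of the one led by Mb), at median depths of 3353 and 4894.5 UMIs. The smooth muscle-like share was thus not above that of every cardiomyocyte-like cluster. The 2 smooth muscle-like clusters differed, with 103, 108 and 40.4 CPM in the cluster led by Ptprz1 and 24.2, 46.4 and 17.6 in that led by Syt1, a difference of 1.76 (SE 0.17, adjusted p = 3.99e-24). Over 7 alternatives the adjusted p of that difference was up to 0.0105. The cluster with more Igfbp2 was the one with less Igf1. It also held more Igf1r, 1269 ± 175 against 1027 ± 75.3 CPM, a difference of 0.35 (SE 0.06, adjusted p = 4.02e-07) whose adjusted p rose to 0.186 in 1 alternative.

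Igfbp4, whose protein inhibits IGF action until it is cut by pappalysin 1, was high in endothelial-like (260.4, 284 and 209 CPM in pools 1 to 3), mesothelial-like (278, 246 and 212) and fibroblast-like nuclei (210.1, 303 and 146). The ranges overlapped, and endothelial-like minus mesothelial-like nuclei gave -0.17 (SE 0.21, adjusted p = 0.59). Lymphatic endothelial-like (169.7 ± 54.8) and valve interstitial-like nuclei (145 ± 68.2) followed. The first called step between neighbours was from valve interstitial-like to macrophage-like nuclei (86.6 ± 30.2), at 0.74 (SE 0.26, adjusted p = 0.0238). It was not called without the block or without pool 2, with an adjusted p of up to 0.205. Smooth muscle-like (67.0 ± 32.4), pericyte-like (53.5 ± 24.9) and cardiomyocyte-like nuclei (63.4, 59.1 and 12.5 in pools 1 to 3) were lowest outside the erythroid-like class, with none of these neighbours called.

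Igfbp7, whose protein is found in vessel walls and matrix, was high in 4 classes of mesenchymal and mural cells. It was 1117, 1391 and 807 CPM in pericyte-like, 947, 1099 and 877 in fibroblast-like, 757, 858 and 741 in smooth muscle-like and 789.7, 827 and 687 in valve interstitial-like nuclei. These 4 classes were not called against each other in neighbouring pairs, with adjusted p from 0.542 to 0.75. Mesothelial-like nuclei (563 ± 75.7) exceeded macrophage-like nuclei (351 ± 62.6) by 0.92 (SE 0.25, adjusted p = 0.00289), which was not called without pool 2 (adjusted p = 0.0644). Endothelial-like nuclei (321 ± 56.0) were below pericyte-like nuclei by 1.78 (SE 0.24, adjusted p = 1.06e-07), and cardiomyocyte-like nuclei were lowest (119.9 ± 67.2). In thinned nuclei an Igfbp7 UMI was present in 54.0% ± 1.54 of pericyte-like nuclei, at a median depth of 4311 UMIs, and 12.9% ± 6.76 of cardiomyocyte-like nuclei (3.21% ± 0.920 of their largest cluster and 38.3% of the one led by Mb).

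**Figure D4:**
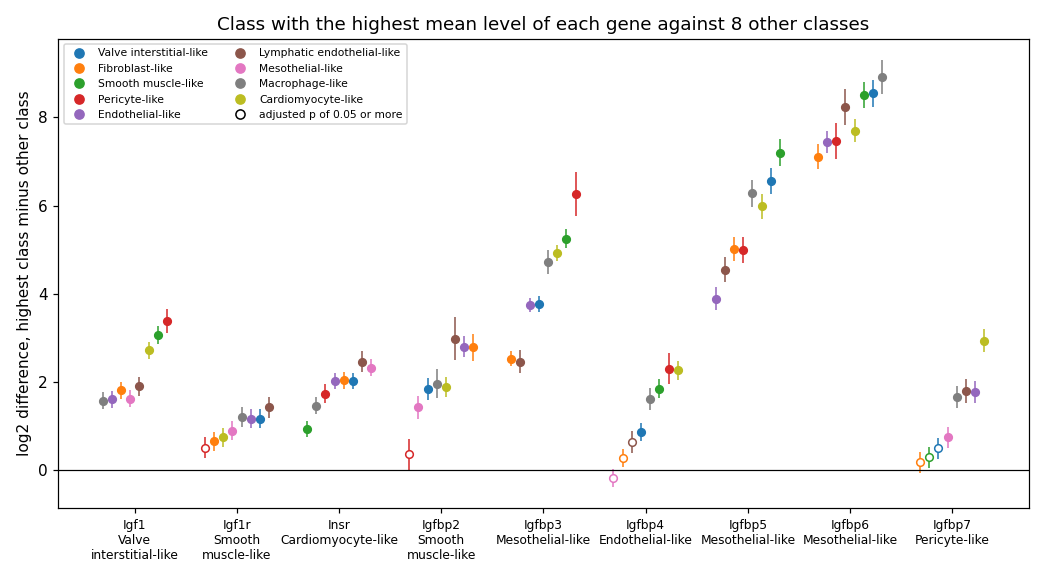
Log2 difference between the class with the highest mean level of each gene, named under it, and each of 8 other classes (erythroid-like nuclei are left out), with SE bars from the edgeR fit. Filled points have an adjusted p under 0.05. All 8 differences are called for Igf1, Insr, Igfbp3, Igfbp5 and Igfbp6, and 7, 7, 5 and 5 for Igf1r, Igfbp2, Igfbp4 and Igfbp7.

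Endothelial-like nuclei were divided into 6 tested clusters, and Igf1, Igf1r, Igfbp4, Igfbp5 and Igfbp7 each had a called maximum or minimum among them. Igf1 was lowest in the cluster with Sema3g and Gja5, genes of arterial endothelium, at 47.4, 28.5 and 23.6 CPM, a difference of -3.19 (SE 0.20, adjusted p = 4.90e-13) from the mean of the other clusters. The same cluster had the highest endothelial-like Igfbp4, 448, 471 and 358 CPM, a difference of 1.21 (SE 0.12, adjusted p = 6.13e-09), and low Igfbp7, 137 ± 23.9. Igf1 was highest in the clusters led by Grid1 and Col23a1 (447 ± 36.9), by Pcdh17 and Aplnr (432 ± 95.7) and by Cytl1 and Rtl4 (429 ± 41.2), whose pools overlapped. The second of these has Gpihbp1, a gene of capillary endothelium, and Aplnr, one of capillary and venous endothelium. The cluster led by Dlgap2 and Cntnap5a, with a median of 2.37% mitochondrial UMIs, held the highest endothelial-like Igf1r, 973, 1008 and 995.5 CPM, and Igfbp7, 733, 803 and 505, with differences of 0.92 (SE 0.08, adjusted p = 1.29e-09) and 1.31 (SE 0.09, adjusted p = 4.00e-12). Its Igfbp4 was 109, 106 and 110.2 CPM, a difference of -1.28 (SE 0.16, adjusted p = 2.94e-07).

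Nuclei with RNA of cell cycle genes could be tested only in the endothelial-like class, with 54, 27 and 34 such nuclei in pools 1 to 3. Igf1 was 144, 210.3 and 268 CPM in cycling and 336, 349 and 329 CPM in the other endothelial-like nuclei, lower in all 3 pools. The difference was -0.79 (SE 0.17, adjusted p = 0.0055), the only call among the 9 genes, where 7.07% of all genes were called higher and 3.69% lower. Without pool 1 it was -0.57 and not called (adjusted p = 0.148). The cycling nuclei were spread over the clusters in other shares, as 41.7% of them and 0.190% of the others lay in the cluster led by Kif23 and Ccnf, and 0.870% and 27.6% in the one led by Grid1. Igf1 differed between these clusters, and the part of the cluster in the difference was not tested.

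Of the 50 other genes of the pathway list, 42 passed the filter on low counts. Over 10 classes, 102 of their 420 contrasts were called higher and 51 lower, where 19.2% and 7.61% of all contrasts of genes with classes were called. Without the erythroid-like class the counts were 104 and 80 of 387, where 19.3% and 15.5% of all were called. The insulin genes Ins1 and Ins2, the binding protein gene Igfbp1 and 5 others were too low to test. In the valve interstitial-like class 10 of the 42 were called higher and 2 lower, where 19.8% and 8.74% of all genes were called, and the list's median difference was 0.19, against 0.21 over all genes. In the mesothelial-like class 17 were called higher and 8 lower, where 33.3% and 13.3% of all genes were called, and the medians were 0.26 and 0.29. In the cardiomyocyte-like class 19 were called higher and 6 lower, where 30.2% and 14.8% of all genes were called, with medians of 0.45 and 0.21.

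Among the ligand and receptor genes of the list, the imprinted growth factor gene Igf2 was highest in mesothelial-like (1208 ± 299 CPM) and endothelial-like nuclei (1048 ± 233), and low in valve interstitial-like nuclei (154 ± 71.1). The mesothelial-like level differed from the mean of the other classes by 2.71 (SE 0.12, adjusted p = 6.51e-22) and the valve interstitial-like level by -0.90 (SE 0.17, adjusted p = 4.89e-05), so Igf1 and Igf2 were called in opposite directions in that class. Igf2r, the receptor that removes IGF2, ranged, outside the erythroid-like class, from 112 ± 34.3 CPM in mesothelial-like to 439 ± 39.2 in pericyte-like nuclei. Ghr, the growth hormone receptor that drives Igf1 in liver, was 2180.2 ± 477 CPM in the endothelial-like class, its highest level, with a difference of 1.41 (SE 0.15, adjusted p = 5.29e-10).

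Pappa, the gene for pappalysin 1, was 219 ± 30.4 CPM in mesothelial-like, 163 ± 19.6 in valve interstitial-like and 10.7 ± 5.04 in endothelial-like nuclei, with differences from the mean of 2.37 (SE 0.16, adjusted p = 5.21e-16), 1.60 (SE 0.17, adjusted p = 2.26e-10) and -2.80 (SE 0.35, adjusted p = 1.71e-08). Its relative Pappa2 was 60.4 ± 15.8 CPM in mesothelial-like and 17.6 ± 3.33 in valve interstitial-like nuclei, and a mean of at most 6.71 in other classes. Htra1, a secreted serine protease, was 126 ± 34.6 CPM in the endothelial-like class, its highest level. The difference was 1.24 (SE 0.12, adjusted p = 6.46e-12), and 2.06 without pool 1.

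Inside the cell, the adaptor genes Grb14 and Grb10, whose proteins bind and restrain the insulin and IGF1 receptors, were highest in the class with the highest Insr. Grb14 was 529 ± 61.2 CPM in cardiomyocyte-like and 289.6 ± 14.5 in smooth muscle-like nuclei, the same first 2 classes as for Insr, and 27.9 ± 3.10 in endothelial-like nuclei. The cardiomyocyte-like difference was 3.19 (SE 0.12, adjusted p = 1.49e-25). Grb10 was 1409.6 ± 194 CPM in cardiomyocyte-like nuclei, 1.95 (SE 0.13, adjusted p = 8.21e-17). Irs1, an adaptor that passes the receptor signal on, was 203 ± 10.1 CPM in fibroblast-like, 186 ± 22.4 in valve interstitial-like and 17.6 ± 5.27 in endothelial-like nuclei, and its endothelial-like difference was -2.45 (SE 0.29, adjusted p = 3.34e-09). Foxo1, a transcription factor that insulin and IGF signals keep out of the nucleus, was highest in lymphatic endothelial-like nuclei (453 ± 73.0), by 1.87 (SE 0.14, adjusted p = 5.21e-14).

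The genes most like each member were sought by Pearson's r of pool-centred log2 CPM over the 30 libraries of 10 classes and 3 pools, which share their depth and capture. They were LOC118568625 (r = 0.864), Veph1 (0.831) and Wnk4 (0.828) for Igf1, Asph (0.990), Rmdn1 (0.985) and Cdc37l1 (0.983) for Insr, and Zfp809 (0.969), B3galnt2 (0.96) and Lzts2 (0.951) for Igf1r. For Igfbp6 they were C3 (0.942), Bnc1 (0.924), itself a mesothelial marker, and Dmkn (0.922), for Igfbp5 Ptma (0.92), Rpl14 (0.905) and S100a6 (0.898), and for Igfbp3 Pdpn (0.892), Mgst1 (0.888) and Tmem106c (0.887). For Igfbp2, Igfbp4 and Igfbp7 the nearest were Get1 (0.869), Ostc (0.966) and Gm12963 (0.901). Without the erythroid-like libraries, 1 of the 3 remained for Igf1, Igf1r and Igfbp6 and 0 for the other 6 members.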

How the data were processed

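Nuclear RNA of 3 pools of mouse aortic valve structures was measured with the gene expression part of a 10x Multiome assay. The deposited values are raw UMI counts per gene and barcode, which the authors made with Cell Ranger, version 7.1.0 in the headers of the matrices. The submitters' processing notes name Cell Ranger 7.0.1 and 7.1.0 and the build GRCm39, and the gene annotation is not given in the sources used here.

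The 21140 deposited nuclei had 49918251, 25341316 and 21254247 UMIs in pools 1 to 3. Nuclei with at least 1000 UMIs and at most 5% mitochondrial UMIs numbered 7071, 3253 and 3749. Scrublet's own threshold marked 0, 0 and 1 deposited nuclei, so the highest doublet scores were removed instead at a fixed rate of 0.8% per 1000 nuclei, which took 598, 155 and 138. Nuclei were clustered with scanpy 1.11.5 and Leiden without the 9 genes, the pathway list, cell cycle, sex or mitochondrial genes, and clusters were named from marker lists. For shares of nuclei, each was thinned to 1000 UMIs, a depth that all analysed nuclei reach. UMI counts were summed per class and pool (30 libraries) and tested with edgeR 4.0.16 (quasi-likelihood, TMM, filterByExpr, pool as a block) in R 4.3.3, over 13518 genes, with Benjamini-Hochberg adjustment; pairs of classes were adjusted together over genes and pairs. The pools pair the classes because each pool is 1 library of the same pooled animals. Nothing in the labels says more about how the pools were collected, so p-values measure the spread between these 3 pools. edgeR estimates that spread with information from all genes, so very small p-values do not rest on the 3 pools of a gene alone. On simulated data for the valve interstitial-like class against the mean of the others, 70.4% of 2-fold and 94.3% of 4-fold changes were recovered. False calls numbered 2 and 14. The simulation gave all classes the same profile and all genes the same spread, with pool effects shared by the classes, unlike the data. Its rates do not cover pairs of classes. Intervals and limits of counts cover counting error only.

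Named genes were the 9 members, the pathway genes and the 3 genes most like each member. Members and lists were chosen with earlier results of these data known. The alternatives were no block, each pool left out, DESeq2 1.42.0, no TMM scaling, no filter on low counts, doublets kept, other UMI, mitochondrial, class size and cell cycle limits, Leiden resolutions 0.5 and 2, and no thinning, and, chosen after seeing the data, leaving out the erythroid-like class. Promoter windows were available for 8 of the 9 genes.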

Additional observations from a re-analysis of the deposited data

How the results depend on the processing

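Of the 2430 differences of the 9 genes between pairs of classes recomputed under 6 alternatives, 2201 kept their side of the threshold, 144 lost the call, 81 gained one and 4 reversed. Of 673 recomputed differences between clusters, 608 did so, 55 lost the call and 10 gained one. Against the mean of the other classes it was 1622 of 1795, with 80 lost, 89 gained and 4 reversed. Among those that kept their side, 117, 16 and 57 uncalled differences turned in sign. The 4 pairs were of Igfbp7 with erythroid-like nuclei. Without TMM scaling, endothelial-like minus erythroid-like was 1.12, erythroid-like minus lymphatic endothelial-like -1.13 and erythroid-like minus macrophage-like -1.28, and cardiomyocyte-like minus erythroid-like ran from -2.04 to 0.078 with 1 pool left out, highest without pool 1. The 4 reversed differences from the mean were those without pool 1. Reversed means that the sign turned and that at least 1 of the 2 fits was called. None of these 4 was called without pool 1, where Insr in mesothelial-like nuclei had an SE of 1.18 and Igfbp4 in smooth muscle-like nuclei 1.31. With 1 pool left out, Insr ran from -0.98 to 0.34 in lymphatic endothelial-like and from -0.72 to 0.39 in mesothelial-like nuclei, and Igfbp4 from -1.53 to 0.089 in pericyte-like and from -0.96 to 0.49 in smooth muscle-like nuclei, each highest value being that without pool 1. Pools 2 and 3 held no UMI of either gene in erythroid-like nuclei. The 21 lower calls of the 9 genes became 12 without the pool as a block and 32 without the erythroid-like class, and 8 to 20 with 1 pool left out, fewest without pool 1. For the pathway list the 51 lower calls became 77 with at least 50 nuclei per class and pool, 80 without the erythroid-like class, and 29 to 39 with 1 pool left out, fewest without pool 1. In cycling nuclei the 1 lower call became 4 with no filter on low counts, 2 with at least 3 cell cycle UMIs, and 0 to 3 with 1 pool left out, none without pool 1. Without the block, 71 pair differences were called higher and 114 lower, against 87 and 131 with it, and 26 and 21 cluster differences, against 33 and 28. Without thinning, the shares of nuclei with a UMI were 60.4% for Igf1, 91.4% for Igf1r, 76.5% for Insr, 13.2% for Igfbp2, 57.3% for Igfbp3, 71.6% for Igfbp4, 96.2% for Igfbp5, 83.1% for Igfbp6 and 85.8% for Igfbp7, each in its class with the highest thinned share. With doublets kept, the thinned shares were 38.6% for Igf1, 68.0% for Igf1r, 6.57% for Igfbp2 and 39.0% for Igfbp7. The cause of these moves was not tested. Depth limits Igfbp2, Igfbp3 and Igfbp6 in pericyte-like, lymphatic endothelial-like, macrophage-like and erythroid-like nuclei, where few UMIs lie behind a level.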
